A study of Mus musculus with 8 samples.

Results

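Transcripts of 45 nucleolar genes were measured in AML12 mouse hepatocytes with and without irisin. The genes were chosen by name as factors of ribosome biogenesis, including RNA polymerase I, that are typically MYC dependent, by a rule that itself used no measured value. All 45 were on the array, with 61 probes, out of 21612 gene symbols and 39429 probes. They were read in 5 groups by role: 7 genes of RNA polymerase I and its initiation factors, 10 of the small-subunit processome and pre-40S particles, 16 pre-60S assembly factors, 7 proteins of the snoRNPs, and 5 abundant nucleolar proteins with several functions.

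The series held 8 one-color arrays of AML12 cells, 4 of control cells and 4 of cells given 0.5 µg/ml irisin for 24 h, both in the same serum-containing medium. AML12 is an established line from the liver of a mouse transgenic for human TGF-alpha, so both groups carry that transgene and neither reflects the mixed cells of a liver. Irisin is a peptide cut from the membrane protein Fndc5. The comparison asked how transcripts in these cells differed after irisin. The labels number the replicates but do not say whether they were separate cultures, so the p-values measure only the spread between these arrays.

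Of 14 hepatocyte markers, 13 were well above background on all 8 arrays, the exception being Cps1, and 6 of 7 fibroblast and stellate cell markers were above background on none. Markers of other lineages were detected as well, with 4 of 5 cholangiocyte and progenitor markers, 2 of 5 endothelial markers and 3 of 6 leukocyte markers above background on all arrays. Some of these levels were lower on the irisin arrays. By the adjusted p in limma 3 of 13 tested hepatocyte markers (Trf, Krt18 and Asgr1) fell, against 17.9% of all tested genes. Both tested endothelial markers (Pecam1 and Kdr) and 2 leukocyte markers (Csf1r and Cd3e) fell as well. These log2 changes ranged from -0.64 to -0.39. No other tested marker passed, with estimates above 0 for Alb, Apob, Fgb, Spp1, Col1a1 and Cd68 and below 0 for the rest. The summed level, as a multiple of the 75th percentile, was 479 to 531 in controls and 392 to 461 with irisin for the hepatocyte markers, 0.701 to 0.788 and 0.413 to 0.584 for the endothelial markers, and 0.721 to 0.839 and 0.580 to 0.696 for the leukocyte markers. It overlapped between groups for cholangiocyte and progenitor markers (55.3 to 61.9 and 57.9 to 60.9) and for fibroblast markers (0.0423 to 0.0522 and 0.0396 to 0.0454). The brightest markers weigh most in such a sum, Krt18 and Trf for hepatocytes and Kdr for endothelium, so it does not describe each list as a whole. Cps1, Cdh5 and Ptprc were not above background on all arrays, and the part of these differences in the results was not tested. The control arrays were all on one slide and the irisin arrays on another, each scanned separately, so slide and treatment cannot be told apart in any result below. The 75th percentile of the signal was 372 to 534 on the control arrays and 682 to 850 on the irisin arrays. Each array was scaled to that percentile, and every level below is a log2 signal relative to it. In cultured cells, a change in the share of cells that make a transcript and a change in RNA per cell cannot be told apart.

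Ribosome production begins in the nucleolus, where RNA polymerase I copies the ribosomal DNA into a long precursor. The processome cuts and folds the part that becomes the small subunit, a second set of factors assembles the large subunit, and snoRNPs guide the methylation and pseudouridylation of the RNA. In hepatocytes this output rises with growth, and MYC, which binds the E-box CACGTG with its partner MAX, is a well known activator of many of these genes.

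The nucleolar genes as a set changed little. A gene was called when its adjusted p in limma was under 0.05 and its change was at least 1.5-fold. None of the 45 was called in either direction, where 0.531% of the 14310 tested genes were called up and 10.2% were called down. By the adjusted p alone, 0 members rose and 3 fell, namely Fbl, Nop56 and Npm1, against 2.65% of tested genes up and 17.9% down. Above the median signal, where 40 members lay, 1.84% of tested genes rose and 6.25% fell. At an unadjusted p under 0.05, 0 members were higher and 7 lower, against 5.94% and 23.6% of tested genes. Those shares cover genes of every signal level and were not taken for the brighter genes alone. The test named in the methods of the study, on the same values, also called 0 members. By its adjusted p alone Fbl, Nop56, Nhp2 and Mybbp1a passed and Npm1 did not, against 15.8% of tested genes down.

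The median log2 change of the members was -0.08, beside -0.06 over all tested genes. Estimates were above 0 for 13 members and below 0 for 32, and 36.0% of all tested genes were above 0. A confidence interval here covers the spread between arrays in this scaling, not differences between slides or between scalings. The 95% confidence interval lay wholly within a 1.5-fold change in either direction for 43 of 45, and Fbl and Npm1 were the exceptions. The same held for 75.2% of tested genes, and for 92.6% of those above the median signal, where 40 members lay. Above that median 0.196% of genes were called up and 0.461% down.

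**Figure D1:**
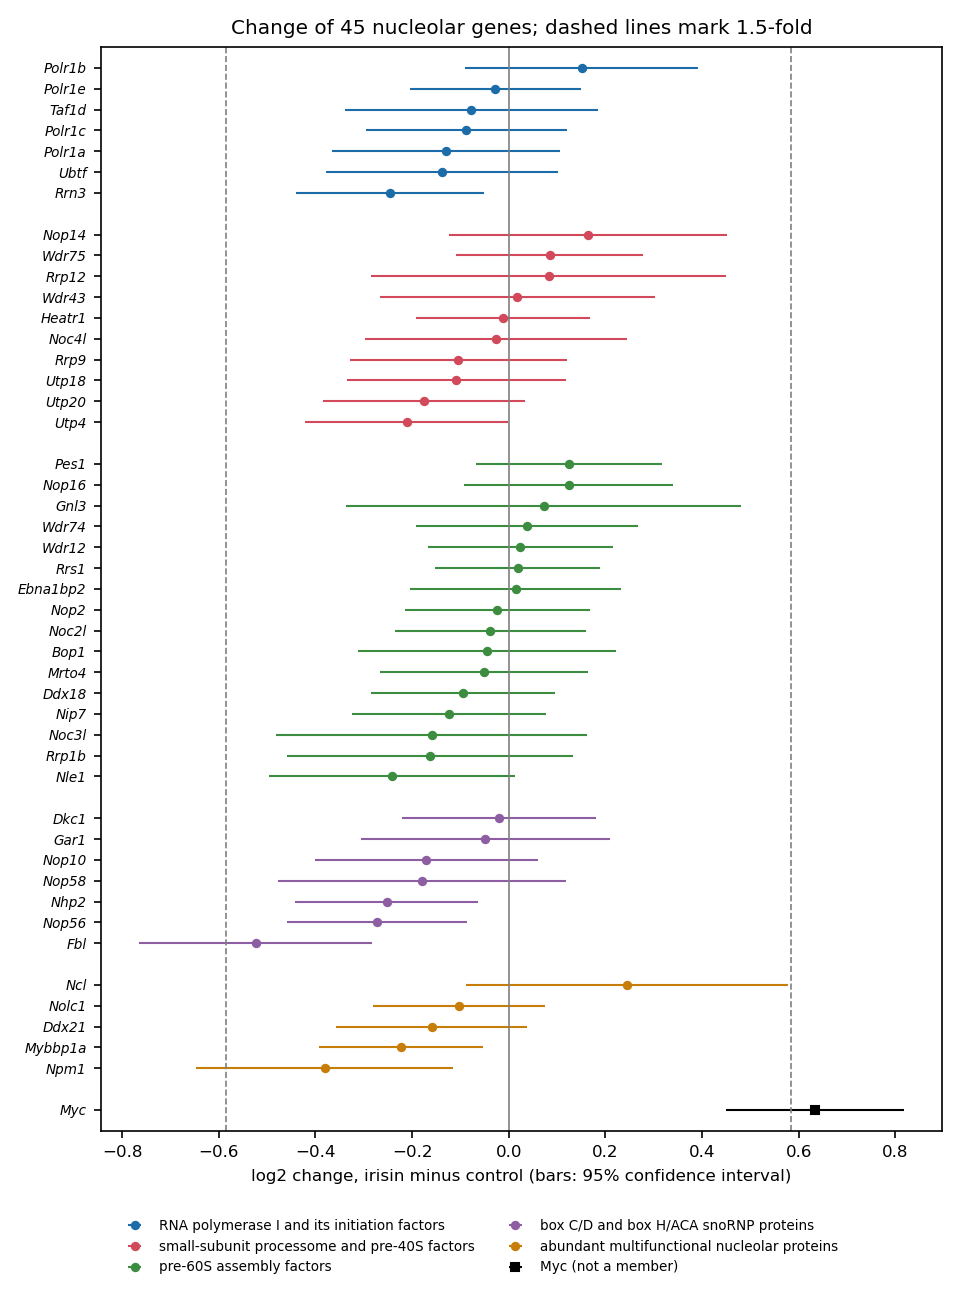
Fitted log2 change (irisin minus control, 4 arrays each) of the 45 members by role group, with 95% confidence intervals, and of Myc. Dashed lines mark 1.5-fold; the intervals of 43 members stay inside them, those of Fbl and Npm1 cross the lower line, and the estimate for Myc lies beyond the upper line.

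The RNA of Myc itself, the common activator, was higher with irisin in this scaling, as read from its brightest probe. Its level was 2.45, 2.38, 2.45 and 2.65 on the control arrays and 3.10, 3.10, 3.16 and 3.11 on the irisin arrays. The groups did not overlap, and the log2 change of 0.63 had a 95% confidence interval of 0.45 to 0.82 and an adjusted p of 0.000362 in limma. The interval for Myc lay above the estimate of every one of the 45 members. It overlapped the intervals of Ncl, Gnl3, Nop14 and Rrp12, whose upper limits were 0.58, 0.48, 0.45 and 0.45. MYC protein and activity were not measured, and the difference between Myc and the members was not tested.

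RNA polymerase I had a median log2 change of -0.09, with 1 of its 7 members above 0 and none past the adjusted p. Rrn3, the factor that makes the polymerase competent to initiate, had levels of 1.96, 1.98, 2.17 and 1.99 in controls and 1.80, 1.86, 1.63 and 1.84 with irisin. The irisin arrays all lay below the controls, and the log2 change was -0.25 (SE 0.087), but the adjusted p in limma was 0.067. Rrn3 did pass with an intensity trend and robust variances, with the background from negative control spots, and without irisin replicate 2. Under the other settings it did not. Polr1b, the second-largest subunit of the enzyme, had control levels of 0.86, 0.67, 1.11 and 0.85 and irisin levels of 1.06, 1.18, 0.97 and 0.88, which overlapped. Its log2 change was 0.15 (SE 0.11, adjusted p in limma 0.381). Polr1b passed the adjusted p only with the background from negative control spots. The remaining 5, Polr1a, Polr1c, Polr1e, Ubtf (the upstream binding factor of ribosomal DNA) and Taf1d (of the promoter selectivity factor SL1), had log2 changes from -0.14 to -0.03, the lowest adjusted p being 0.422.

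Among factors of the small subunit the median log2 change was -0.02, with 4 estimates above 0 and 6 below. Utp4, one of the processome proteins that also act in ribosomal DNA transcription, had levels of 1.74, 1.71, 1.64 and 1.55 in controls and 1.28, 1.61, 1.38 and 1.52 with irisin. Replicate 2 of irisin reached the control range, and the log2 change of -0.21 (SE 0.094) had an adjusted p of 0.142 in limma. Nop14, a processome component needed for cleavage of the precursor, had levels of 0.26, 0.30, 0.04 and -0.24 in controls and 0.45, 0.11, 0.28 and 0.17 with irisin. The spread was wider among the controls, and the change of 0.16 (SE 0.13) did not pass, with an adjusted p of 0.428 in limma. The other 8 (Heatr1, Wdr43, Wdr75, Utp18, Utp20, Noc4l, Rrp9 and Rrp12) had log2 changes from -0.18 to 0.08.

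Pre-60S factors were the group most evenly divided, with 7 estimates above 0, 9 below and a median log2 change of -0.03. Pes1, which with Bop1 and Wdr12 forms the PeBoW complex of large-subunit maturation, had levels of 1.71, 1.73, 1.95 and 1.75 in controls and 1.89, 2.03, 1.86 and 1.86 with irisin. Only replicate 3 of the controls reached the irisin range, and the log2 change was 0.12 (SE 0.087, adjusted p in limma 0.362). A dimmer probe for Pes1 gave -0.24. Nle1, a WD-repeat protein of late nucleolar pre-60S particles, had control levels of -0.38, -0.30, -0.08 and -0.36 and irisin levels of -0.76, -0.29, -0.58 and -0.46. Its log2 change was -0.24 (SE 0.11), and replicate 2 of irisin again lay among the controls; the adjusted p in limma was 0.169.

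The other 14 pre-60S factors, among them the methyltransferase Nop2, the helicase Ddx18 and the GTP-binding protein Gnl3, had log2 changes from -0.16 to 0.12, and their lowest adjusted p was 0.390. Ebna1bp2 was measured by 3 probes. The brightest gave a log2 change of 0.01, the second 0.26 with an adjusted p of 0.0381 in limma, and the third 0.22.

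In the snoRNP proteins every estimate was below 0 in this scaling, with a median log2 change of -0.18 over 7 genes, and they held 2 of the 3 members that fell. Fibrillarin (Fbl), the methyltransferase of box C/D snoRNPs, had levels of 4.72, 4.56, 4.48 and 4.58 in controls and 4.01, 4.32, 3.86 and 4.05 with irisin. The highest irisin array lay below the lowest control. Its log2 change was -0.52 (SE 0.11; 95% confidence interval -0.76 to -0.28; adjusted p in limma 0.00462; exact two-sided permutation p 0.0286, the smallest that 70 assignments of 4 and 4 arrays allow). This was a level 0.696 times that of the controls. Without irisin replicate 2 the change was -0.61 (adjusted p in limma 0.000994), past the 1.5-fold threshold, and 7 members in place of 3 then passed the adjusted p, against 22.1% of tested genes down.

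Nop56, a scaffold of the same box C/D particles, had levels of 5.49, 5.54, 5.64 and 5.66 in controls and 5.24, 5.44, 5.24 and 5.32 with irisin. These groups did not overlap either, and the log2 change was -0.27 (SE 0.084, adjusted p in limma 0.0374). A second, dimmer probe for Nop56 gave 0.06, so the fall rests on the brightest probe, which represents each gene here. With single arrays left out, Nop56 passed without control replicate 1 and without irisin replicate 2, but not in the other 6 cases. Nhp2, a core protein of the box H/ACA particles, also had groups that did not overlap, with a log2 change of -0.25 and an adjusted p of 0.0552 in limma, but its estimate was 0.06 after quantile normalization. Dkc1, the pseudouridine synthase of those particles, had levels of 0.85, 0.72, 0.58 and 0.64 in controls and 0.61, 0.61, 0.82 and 0.67 with irisin. Those ranges overlapped almost wholly, and the change was -0.02 (SE 0.090; 95% confidence interval -0.22 to 0.18).

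The 5 abundant nucleolar proteins had a median log2 change of -0.16, with 1 estimate above 0. Npm1, the histone chaperone nucleophosmin, had levels of 6.28, 6.12, 5.92 and 6.03 in controls and 5.75, 5.42, 5.93 and 5.72 with irisin. Replicate 3 of irisin lay just above the lowest control, and the log2 change was -0.38 (SE 0.12, adjusted p in limma 0.0412). The other 4 probes for Npm1 gave -0.15, -0.12, -0.07 and 0.20, none past the adjusted p. Npm1 passed without control replicate 3 and without irisin replicate 3, but not when any one of the other 6 arrays was left out.

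Nucleolin (Ncl), which binds ribosomal precursor RNA and chromatin, had levels of 4.65, 4.70, 4.43 and 4.22 in controls and 4.66, 4.56, 5.15 and 4.61 with irisin. Replicate 3 stood above the other irisin arrays, and the log2 change of 0.24 (SE 0.15) had an adjusted p of 0.294 in limma. A dimmer Ncl probe went the other way, at -0.30 with an adjusted p of 0.0433 in limma. Mybbp1a, a nucleolar repressor of transcription, had irisin levels all below those of controls, with a log2 change of -0.22 and an adjusted p of 0.0573 in limma. In all, the irisin arrays lay wholly below the controls for 5 members (Rrn3, Fbl, Nop56, Nhp2 and Mybbp1a) and wholly above for none. The shares were 19.7% and 4.16% over tested genes of every signal level, and were not taken for the brighter genes alone.

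**Figure D2:**
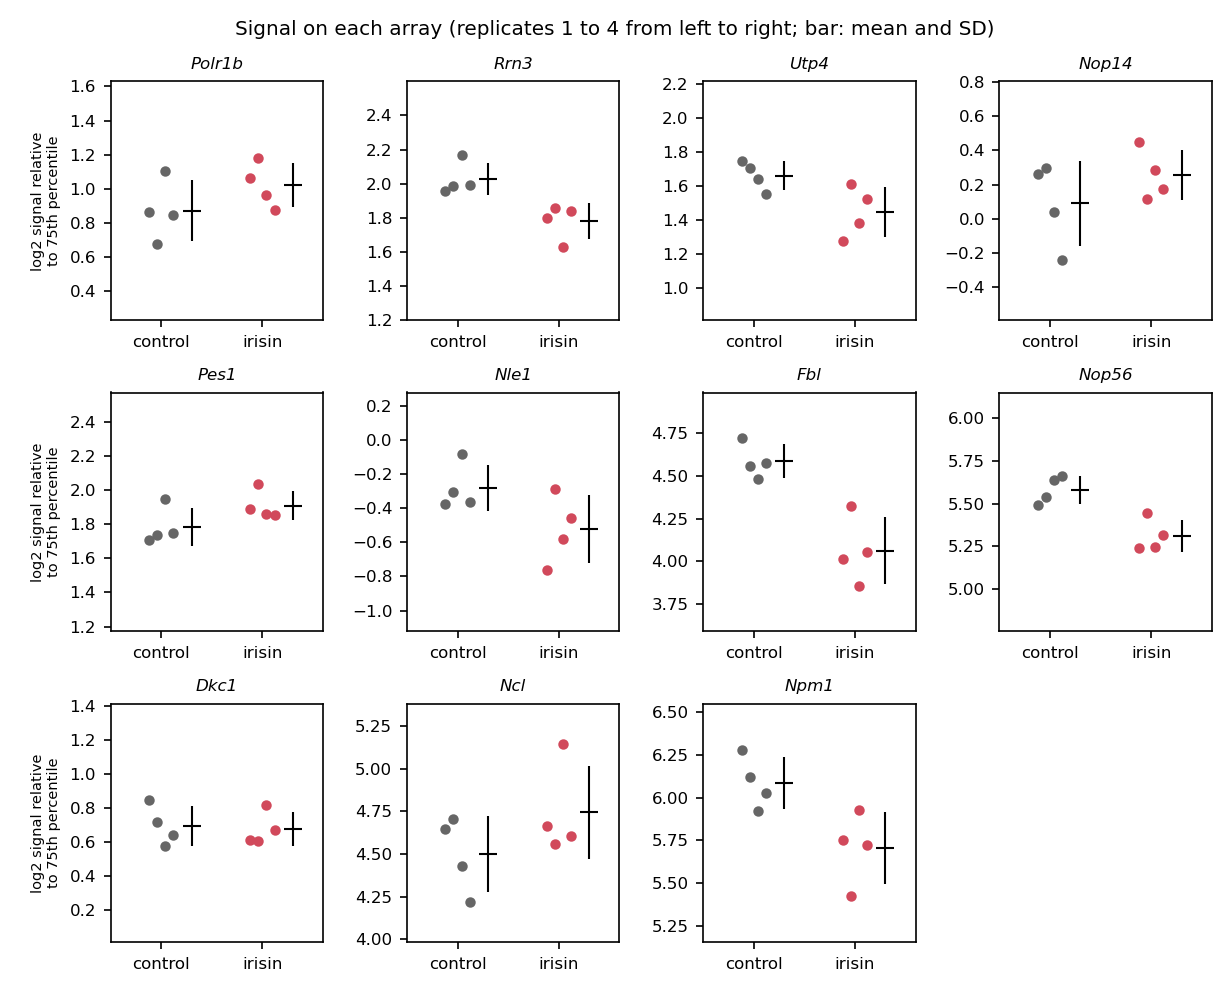
Log2 signal relative to each array's 75th percentile for the highest and lowest change of each role group (in the snoRNP group the highest, Dkc1, is below 0) and the members past the adjusted p, on 4 control (grey) and 4 irisin (red) arrays, with mean and SD. Every panel spans the same height; the groups separate for Rrn3, Fbl and Nop56 and overlap for the other 8 genes.

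Probes of one gene did not always move together. Of the 12 members with several probes, 6 (Ncl, Nolc1, Nop56, Npm1, Pes1 and Polr1e) had probes with estimates on both sides of 0. The range between a member's probes had a median of 0.228 and reached 0.582 on the log2 scale. None of the 61 member probes was called, against 0.714% of tested probes up and 11.7% down. Of the 16 dimmer probes, 2 passed the adjusted p, the one for Ebna1bp2 up and the one for Ncl down, against 2.96% and 21.6% of tested probes. Which transcript ends or isoforms each probe reads was not analysed here.

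**Figure D3:**
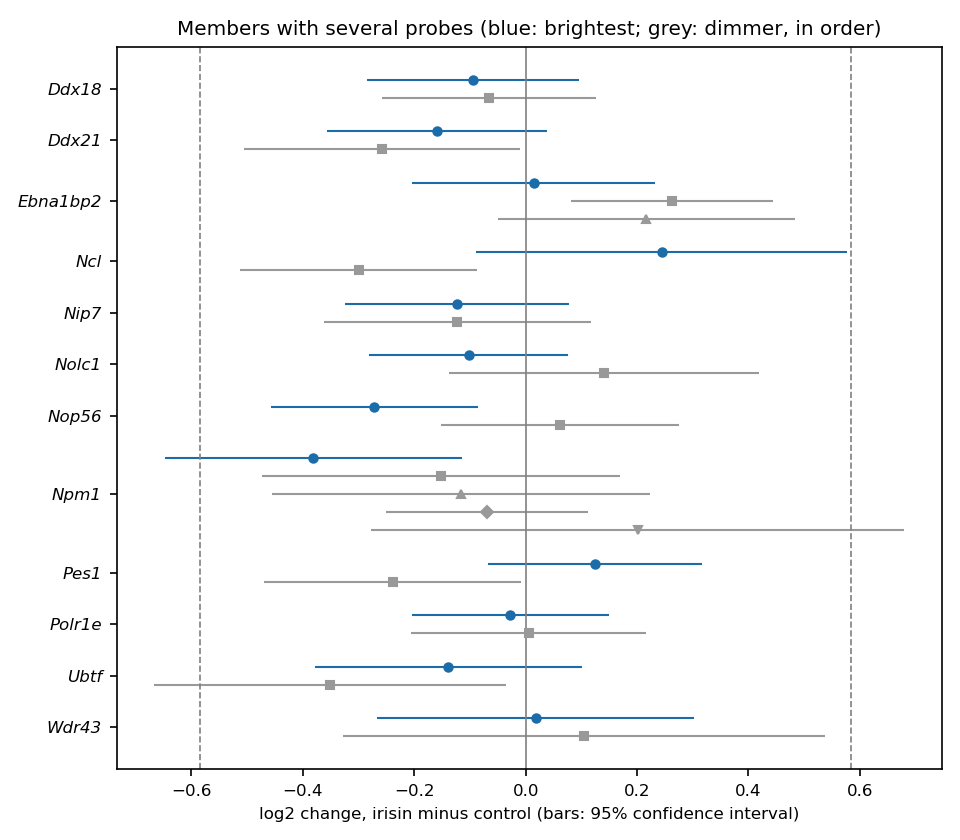
Log2 change (irisin minus control) with 95% confidence interval for each probe of the 12 members with several probes, the brightest probe in blue and dimmer ones in grey. The probes for Ncl, Nop56 and Pes1 lie on opposite sides of 0, and those for Nip7 and Ddx18 nearly coincide.

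The arrays within each group differed from each other in a patterned way. Among the controls, replicate 1 was the highest for 20 members, against 28.6% of tested genes. Replicate 4 of the controls was the lowest for 20 members, against 21.0% of tested genes. Among the 4 irisin arrays, replicate 2 was the highest for 29 members and the lowest for 11, which made it an extreme for 88.9% of the set, where it was an extreme for 73.2% of tested genes. Of the 11 members lowest on replicate 2, namely Taf1d, Wdr43, Wdr75, Utp20, Nop14, Noc3l, Gnl3, Nop58, Dkc1, Ncl and Npm1, 9 were highest on replicate 3. The same was so for 51.4% of the tested genes that were lowest on replicate 2. Gnl3, for example, had levels of 1.86, 1.09, 1.99 and 1.68 on the irisin arrays and 1.63, 1.78, 1.61 and 1.30 on the controls. Replicate 2 had the lowest 75th percentile of the 4, at 682, and its part in these differences was not tested.

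**Figure D4:**
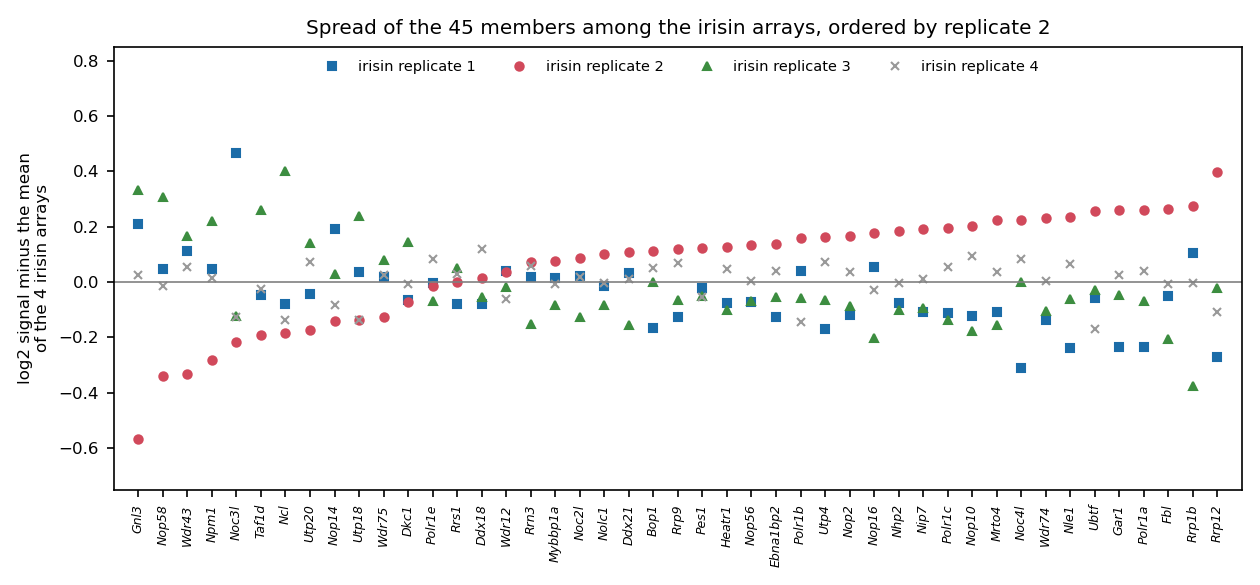
Log2 signal of each member on the 4 irisin arrays minus their mean, with members ordered by replicate 2. Replicate 2 is the lowest array for the genes at the left end and the highest for 29 of 45, while replicate 3 is the highest for 9 of the 11 genes that replicate 2 holds lowest.

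Other genes of the pathway, 123 of 124 of which could be tested, moved in both directions. None was called, 5 rose and 3 fell by the adjusted p alone, and the median log2 change was -0.05. By the adjusted p alone 2.65% of all tested genes rose and 17.9% fell, and 1.84% and 6.25% of those above the median signal. Called shares over all tested genes were 0.531% up and 10.2% down. Taf1b, a subunit of SL1, rose by 0.44 on the log2 scale (SE 0.12, adjusted p in limma 0.0253), from a mean level of -4.24 ± 0.22 to -3.80 ± 0.16 (SD, n = 4). Las1l, an endonuclease of the large-subunit precursor, rose by 0.34 (SE 0.099), and Nvl, an ATPase that remodels pre-60S particles, by 0.32 (SE 0.092). The rises of Taf1b and Nvl, both from dim probes, had estimates below 0 under another background correction, at -0.27 and -0.11. Exosc2, of the RNA exosome that trims precursor ends, fell by 0.44 (SE 0.091, adjusted p in limma 0.00480). Utp6, of the processome, fell by 0.37 (SE 0.12), and Snu13, which nucleates box C/D particles, fell by 0.31 (SE 0.085).

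The machinery for other RNAs gave medians on both sides. The median log2 change was -0.10 over 7 tested subunits of RNA polymerase II, 0.08 over 11 of RNA polymerase III and -0.21 over 5 shared between polymerases, beside -0.09 for the 7 genes of RNA polymerase I and its factors. By the adjusted p alone, 1 of the RNA polymerase II subunits fell and none of the others passed. The proteins of the finished cytosolic ribosome had a lower median of -0.40 over 77 genes, 56 of which fell by the adjusted p alone and 5 of which were called down. Over all tested genes the shares were 17.9% down by the adjusted p alone and 10.2% called down. No test of these lists against the nucleolar genes was made, and the ribosomal protein median was -0.01 after quantile normalization and -0.16 after cyclic loess.

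Probe brightness, which does not rank transcripts against each other, was related to the change in different ways across its range. Over all tested genes the correlation of change with brightness was 0.33, dimmer genes having the lower changes, and over the 45 members it was -0.26; genes share the arrays and are not independent replicates. The 15 members with probes among the brightest 10% of tested genes changed by a median of -0.14 on the log2 scale, beside -0.15 for all genes in that 10%. The other members had a median of -0.03, beside -0.05 for the other tested genes. The change of Fbl was -0.42 (adjusted p in limma 0.00854) after quantile normalization and -0.40 (adjusted p in limma 0.0103) after cyclic loess, both of which remove a trend with brightness. Under those settings Fbl was the only member past the adjusted p.

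**Figure D5:**
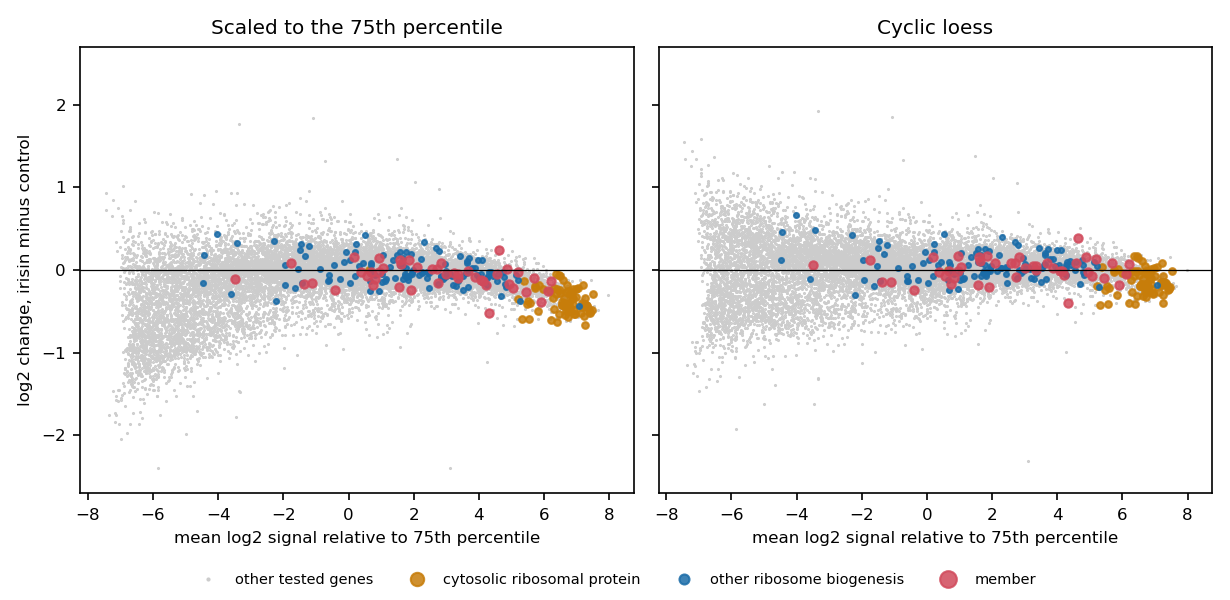
Log2 change (irisin minus control) against mean log2 signal for tested genes (grey), members (red), other ribosome biogenesis genes (blue) and cytosolic ribosomal proteins (orange), scaled to the 75th percentile (left) and after cyclic loess (right). On the left, 32 of 45 members lie below 0, with a median of -0.08, and on the right the member median is 0.02. The ribosomal proteins at the bright end move from a median of -0.40 to -0.16.

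Directions hold only relative to the other genes of an array. With no scaling the median over all tested genes was 0.67 and that of the members 0.66, so that 43 members passed the adjusted p upward and 31 were called. With scaling to the spike-in probes these medians were 0.51 and 0.50, with 18 members past the adjusted p upward and 13 called, beside 82.8% and 41.8% of tested genes past the adjusted p upward and 66.8% and 33.4% called up under the respective settings. The change of Fbl was 0.21 with no scaling and 0.05 with spike-in scaling. In both, the member median lay just below that of all tested genes.

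Promoters were examined for CACGTG because that E-box is the site of MYC and MAX. RefSeq windows on GRCm38.p6, from 250 bases before to 50 after each start, were at hand for 40 members, not for Npm1, Bop1, Rrp12, Rrs1 and Fbl. CACGTG, which reads the same on both strands, was in 9 of the 40 (22.5%). It was in 11.1% of 11381 windows of tested genes and in 17.5% of 103 windows of the other pathway genes. The 9 members with it (Rrn3, Utp4, Wdr43, Utp18, Utp20, Pes1, Nop2, Nle1 and Mybbp1a) had a median log2 change of -0.18, from -0.25 to 0.12, and the 31 without it a median of -0.05, from -0.27 to 0.24. The 250 bases before the start are shown for the 3 genes whose E-box lies there, with CACGTG in capitals. In Rrn3 (plus strand, chr16:13780449-13780698) it begins 215 and 48 bases before the start, in Nop2 (plus strand, chr6:125131633-125131882) 60 bases before, and in Utp18 (minus strand, chr11:93885767-93886016) 20 bases before.
Rrn3: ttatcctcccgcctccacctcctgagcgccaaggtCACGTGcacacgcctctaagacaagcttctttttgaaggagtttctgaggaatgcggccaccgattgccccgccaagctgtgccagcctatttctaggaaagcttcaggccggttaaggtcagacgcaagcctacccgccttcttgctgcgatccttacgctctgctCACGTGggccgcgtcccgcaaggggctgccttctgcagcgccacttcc
Nop2: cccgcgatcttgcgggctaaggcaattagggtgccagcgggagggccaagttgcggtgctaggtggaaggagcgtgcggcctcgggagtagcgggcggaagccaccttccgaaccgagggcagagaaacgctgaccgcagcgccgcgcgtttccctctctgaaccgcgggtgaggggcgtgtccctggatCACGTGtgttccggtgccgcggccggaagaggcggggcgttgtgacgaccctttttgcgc
Utp18: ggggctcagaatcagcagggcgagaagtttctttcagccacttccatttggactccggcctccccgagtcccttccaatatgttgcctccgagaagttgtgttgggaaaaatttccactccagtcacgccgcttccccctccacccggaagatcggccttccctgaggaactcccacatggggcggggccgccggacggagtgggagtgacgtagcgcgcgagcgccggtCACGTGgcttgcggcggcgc
These are matches of letters, and binding was not measured. In this scaling the log2 changes were -0.25 for Rrn3, -0.02 for Nop2 and -0.11 for Utp18, and none passed the adjusted p. Rrn3 was 0.49 with no scaling and 0.33 with spike-in scaling. Of the other genes with the E-box, Pes1 (0.12) and Wdr43 (0.02) were above 0. Utp4, Utp20, Nle1 and Mybbp1a were below 0. Whether the E-box bears on these changes was not tested.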

How the data were processed

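RNA from 4 control and 4 irisin-treated AML12 samples was labeled with Cy3 by the authors, hybridized to Agilent mouse arrays and scanned. The authors deposited Feature Extraction 12.0.3.1 output, in which each spot has a signal intensity on a linear scale, background-subtracted but not normalized between arrays, and a value table that equals the mean processed intensity of each probe's spots.

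Control spots and outlier spots (at most 0.463% of an array) were left out, spots of a probe were averaged, and log2 values were centered on each array's 75th percentile. No spot was saturated. The number of arrays limits the precision. Probes well above background on all 4 arrays of a group were tested, 24093 in all for 14310 genes. Of 39429 probes, 28663 were named by accession through a RefSeq table of GRCm38.p6. The brightest probe represented a gene. The fit used limma 3.58.1 in R 4.3.3 (irisin minus control, two-sided, Benjamini-Hochberg over all tested probes), and single values were also given an exact permutation test over 70 assignments. On simulated data with 24093 probes, the irisin against control fit recovered 85 of 100 probes changed by 1 on the log2 scale and 100 of 100 changed by 2, with 4 unchanged probes called. The simulation drew independent normal noise for each probe, with no difference between slides and no trend with brightness. It held no changes as small as those of the members, so it does not describe how well such changes are found.

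Values on every array are given for called members, for the highest and lowest change of each role group (the highest being below 0 for the snoRNPs), and for non-overlapping members past the adjusted p. Of the other pathway genes, the 3 largest rises and falls past it are named. Ebna1bp2, Gnl3, Nhp2, Mybbp1a and Noc3l were singled out after their values were seen. The members and lists were chosen with earlier results of these data known. Alternatives covered background correction, scaling, probe filters, outlier spots, the variance model, the test, the replicate block, single arrays left out, the probe of a gene and the fold threshold. Replicate numbers did not pair the arrays. Probe sequences and other experiments of the study were not used here.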

Additional observations from a re-analysis of the deposited data

Results flagged for a closer look

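In 4 of 104 groups of 4 arrays, 1 array stood far from the other 3 by Dixon's criterion, which chance meets in about 1 of 20 groups. Rrn3 was 2.17 on control replicate 3 and 1.96 to 1.99 on the other controls, and without that array its log2 change was -0.20 in place of -0.25. Because Rrn3 is the median gene of the RNA polymerase I group on every array, the group median stood out with the same 2.17. Pes1 was 1.95 on control replicate 3 and 1.71 to 1.75 on the other controls, with a log2 change of 0.18 without it in place of 0.12. Noc3l, a pre-60S factor, was -0.73 on irisin replicate 1 and -1.41 to -1.32 on the other irisin arrays. Without that array its log2 change was -0.31 (adjusted p in limma 0.0397) in place of -0.16 (adjusted p in limma 0.499).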

How the results depend on the processing

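Scaling set the direction of nearly everything, in place of a log2 change of -0.08 for the member median and 0 members called. With no scaling and with spike-in scaling, respectively, 31 and 13 members were called up (66.8% and 33.4% of tested genes), 43 and 18 passed the adjusted p upward and 0 and 0 downward. Medians became 0.66 and 0.50 for the members, 0.65 and 0.49 for RNA polymerase I, 0.72 and 0.56 for the small subunit, 0.71 and 0.55 for pre-60S factors, 0.56 and 0.40 for snoRNPs, 0.58 and 0.42 for the abundant proteins, 0.69 and 0.53 for the other pathway genes, 0.64 and 0.48 for RNA polymerase II, 0.82 and 0.66 for RNA polymerase III, 0.53 and 0.37 for shared subunits and 0.34 and 0.18 for ribosomal proteins. Of the other pathway genes 102 and 45 were called up, with 121 and 53 past the adjusted p upward and 0 and 0 downward. Upward passes were 7 and 3 for RNA polymerase II (0 downward), 11 and 8 for RNA polymerase III, 5 and 1 for shared subunits and 35 and 1 for ribosomal proteins (0 downward). Single genes with estimates below 0, of which Fbl, Nop56, Npm1, Exosc2, Utp6 and Snu13 had passed the adjusted p, became Fbl 0.21 and 0.052, Nop56 0.47 and 0.30, Npm1 0.36 and 0.19, Rrn3 0.49 and 0.33, Utp4 0.53 and 0.36, Nle1 0.50 and 0.34, Dkc1 0.72 and 0.56, Nhp2 0.49 and 0.32, Mybbp1a 0.51 and 0.35, Noc3l 0.58 and 0.42, Exosc2 0.30 and 0.14, Utp6 0.37 and 0.20 and Snu13 0.43 and 0.27. Of all tested probes (172 called up and 2816 down), 14920 and 7817 were called up and 162 and 362 down.

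After cyclic loess and quantile normalization, respectively, 1 member (Fbl) passed downward in each, and the member medians were 0.021 and 0.00031. The abundant proteins had medians of -0.066 and -0.050, the shared subunits -0.059 and 0.0078 and the ribosomal proteins -0.16 and -0.013, with 23 and 7 ribosomal proteins past the adjusted p downward and, with quantile normalization, 4 upward. Of the other pathway genes 14 and 11 then passed upward and 0 and 0 downward, and 1 was called up in each; their median was 0.039 after cyclic loess. RNA polymerase II had 0 downward after quantile normalization, and RNA polymerase III 1 upward after cyclic loess. Nhp2 was 0.055 after quantile normalization. Of all probes 699 and 670 were called up and 926 and 1021 down.

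The planned normexp background correction gave no usable values because its fitted background mean was -306 and -395 on irisin replicates 2 and 4, against -10.7 to -8.06 on the other arrays. In its place, chosen after seeing the data, the background came from negative control spots. Then 1 member passed upward and 5 downward, 10 other pathway genes upward and 10 downward, 1 RNA polymerase II subunit and 4 RNA polymerase III subunits upward; the abundant proteins had a median of -0.063, Dkc1 was 0.070, 55 of all probes were called up, Taf1b -0.27 and Nvl -0.11. With an intensity trend and robust variances 6 members passed downward and 1 RNA polymerase III subunit upward. With the mean over probes 1 member passed downward, Ncl was -0.028 and Pes1 -0.057. With the methods' test the RNA polymerase II count was 0 and 108 probes were called up, at 2-fold 23 probes were called up and 778 down, and with no filter on dim probes 12750 were called down. With the replicate block, although same-numbered arrays did not deviate together (correlations -0.35 to 0.17), 1 member in place of 3 passed downward, as did 1 of the other pathway genes and 0 RNA polymerase II subunits.

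With single arrays left out, members past the adjusted p downward ranged from 1 to 7 and members called down from 0 to 1, other pathway genes past it from 0 to 10 upward and from 1 to 6 downward and called up from 0 to 1, RNA polymerase II from 0 to 1 downward, RNA polymerase III from 0 to 1 upward, shared subunits from 0 to 1 downward, all probes called up from 102 to 335, Dkc1 from -0.069 to 0.030 and Ebna1bp2 from -0.033 to 0.081. Called members otherwise stayed at 0 under every setting but no scaling and spike-in scaling. The cause of these differences was not tested.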
